A study of Mus musculus with 6 samples.

Results

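Amino acid transporters of the ovary were examined in Rnf111+/- and wild-type mice through 7 solute carrier families: Slc1a, Slc3a, Slc6a, Slc7a, Slc36a, Slc38a and Slc43a. Members were taken by symbol from the count table, and 46 of the 67 matching symbols had at least 10 counts in at least 3 of the 6 libraries. The table held 35415 genes in all. Just inside that minimum lay Slc6a20a, with 9, 16 and 5 counts in Rnf111+/- ovaries and 10, 7 and 14 in wild-type ovaries, and just outside lay Slc6a19, with 2, 7 and 13 in Rnf111+/- ovaries and 0, 1 and 11 in wild-type ovaries. Of the 21 symbols left out, 4 had no count in any library. The label "amino acid transporters" fits most members but not all by known function: Slc6a8 carries creatine, Slc6a4 carries serotonin, Slc43a3 carries purine nucleobases, and Slc7a6os is an opposite-strand gene whose product is linked to RNA polymerase II import. They are kept here because the symbol decided membership.

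The mutant mice were heterozygous for a CRISPR-Cas9 allele of Rnf111 (Rnf111+/-, 3 libraries), and the controls were wild type (3 libraries). All were 3 months old and sampled at estrus, and the titles name each library after its own mouse. The study made a pair of mouse models of monoallelic RNF111 variants linked to premature ovarian insufficiency. The titles call the mutant mice het_KO, a heterozygous knockout, and the sources used here say no more on which model was sequenced. Rnf111 encodes Arkadia, a ubiquitin ligase that promotes TGF-beta family signalling by marking its inhibitors for degradation. Rnf111 itself stood at 44.6 ± 0.394 CPM (the library's counts scaled to a common total, after TMM) in Rnf111+/- ovaries and at 53.87 ± 0.477 CPM in wild-type ovaries (SD, n = 3 each), a log2 fold change of -0.27 ± 0.07 (SE; edgeR adjusted p = 0.04). Libraries held 38261449 to 39474515 counts, and the members together took 0.239 to 0.274% of a Rnf111+/- library and 0.241 to 0.255% of a wild-type library. A count of 3, taken as the detection floor, equalled 0.0747 to 0.0784 CPM. Wild-type replicate 3 stood apart from its group: its log2 CPM correlated with the other wild-type libraries at r = 0.9735 and 0.9745 across genes, against 0.9887 between those and 0.9861 to 0.9885 among Rnf111+/- libraries.

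Cells take up amino acids through carriers that differ in substrate and driving force. Sodium-coupled carriers of the SLC1, SLC6 and SLC38 families concentrate their substrates, whereas the light chains of the SLC7 family mostly exchange amino acids across the membrane and reach the cell surface only when bound to a heavy chain of the SLC3 family. In the follicle, the mouse oocyte takes up some amino acids poorly by itself and receives them through gap junctions from the surrounding cumulus cells, in which oocyte signals promote Slc38a3. Glycine entering the oocyte through GlyT1, the product of Slc6a9, serves as an osmolyte that sets cell volume.

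Promoter sequences are shown first because several of these genes are textbook targets of the amino acid response, in which the transcription factor ATF4 binds an amino acid response element. RefSeq promoter windows (build GRCm38.p6, 250 bases before to 50 after the start) were matched by symbol for 33 of the 46 members. Windows of Slc38a3, Slc1a5, Slc43a3 and Slc6a7 were not analysed here. The core TGATGNAA was found on either strand in 3 of the 33 members (9.09%): Slc1a4, Slc7a11 and Slc7a7. Among all 13175 tested genes with a window, 396 held it (3.01%). In the sequences, capitals mark the core on either strand. The windows printed are those of Slc1a4, which was lower in Rnf111+/- ovaries, Slc7a11, whose known pair of facing elements lies in the window, Slc7a7, which was higher, and Slc38a5, which was higher and holds no core. Slc7a7 has 5 windows, of which 2 hold the core and 3 do not, and the one printed is the furthest upstream.
Slc1a4 (chr11:20332664-20332963, minus strand): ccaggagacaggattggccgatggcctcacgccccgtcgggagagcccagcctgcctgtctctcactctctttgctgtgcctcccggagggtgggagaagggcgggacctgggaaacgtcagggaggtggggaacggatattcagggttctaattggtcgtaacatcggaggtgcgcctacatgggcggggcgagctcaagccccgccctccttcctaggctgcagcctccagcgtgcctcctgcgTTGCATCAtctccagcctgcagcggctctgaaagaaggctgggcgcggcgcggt
Slc7a11 (chr3:50443564-50443863, minus strand): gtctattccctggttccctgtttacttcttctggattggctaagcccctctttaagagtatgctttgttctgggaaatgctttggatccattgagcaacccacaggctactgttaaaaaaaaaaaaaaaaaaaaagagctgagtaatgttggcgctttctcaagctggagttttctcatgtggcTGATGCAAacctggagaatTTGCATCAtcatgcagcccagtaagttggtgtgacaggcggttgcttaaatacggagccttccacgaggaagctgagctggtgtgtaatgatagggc
Slc7a7, upstream start (chr14:54417895-54418194, minus strand): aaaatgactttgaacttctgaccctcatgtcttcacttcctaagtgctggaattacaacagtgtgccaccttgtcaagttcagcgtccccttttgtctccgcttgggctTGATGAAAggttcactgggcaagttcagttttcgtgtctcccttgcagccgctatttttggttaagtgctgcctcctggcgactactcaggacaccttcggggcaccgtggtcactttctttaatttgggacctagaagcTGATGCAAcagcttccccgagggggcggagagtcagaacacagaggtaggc
Slc38a5 (chrX:8271131-8271430, plus strand): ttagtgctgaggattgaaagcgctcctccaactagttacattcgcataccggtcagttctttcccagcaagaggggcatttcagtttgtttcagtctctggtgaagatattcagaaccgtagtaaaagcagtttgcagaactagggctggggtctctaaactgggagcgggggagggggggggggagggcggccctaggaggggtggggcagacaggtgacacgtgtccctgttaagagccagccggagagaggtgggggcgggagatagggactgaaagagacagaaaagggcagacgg

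In Slc1a4 the match spanned the start itself, from base -4 to base 4, and in Slc7a11 the pair lay at -66 to -59 and -47 to -40. The Slc7a7 window held matches at -141 to -134 and -1 to 7. The antioxidant response element TGACNNNGC was found in 7 of the 33 members (21.2%) and in 2183 of the 13175 genes (16.6%), none of them among the windows printed. The SMAD palindrome GTCTAGAC was found in none of the 33 members' windows and in 40 of the 13175 genes (0.304%). Each match describes the letters of the window only.

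Between genotypes, 4 of the 46 members rose and 3 fell in Rnf111+/- ovaries, and 39 did not pass edgeR's quasi-likelihood test. The rises were those of the glutamine carrier genes Slc38a3 and Slc38a5, the light chain gene Slc7a7 and the proline carrier gene Slc6a7. The falls were those of Slc1a5 and Slc1a4, which encode the neutral amino acid exchangers ASCT2 and ASCT1, and of Slc43a3. Over all 16841 genes tested, 3.90% rose and 5.74% fell, against 8.70% and 6.52% of the members. In 18 members (39.1%; 7 higher and 11 lower), every library of one genotype lay above every library of the other, against 32.0% of all tested genes. The shares of members that fell and that did not overlap lay near those of all genes. The median log2 fold change was -0.045 over the members and -0.008 over all genes, and the median size of the change, whatever its sign, was 0.277 over the members and 0.199 over all genes. In bulk tissue, a change in the number of cells of a type and a change in the RNA per cell cannot be told apart.

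**Figure D1:**
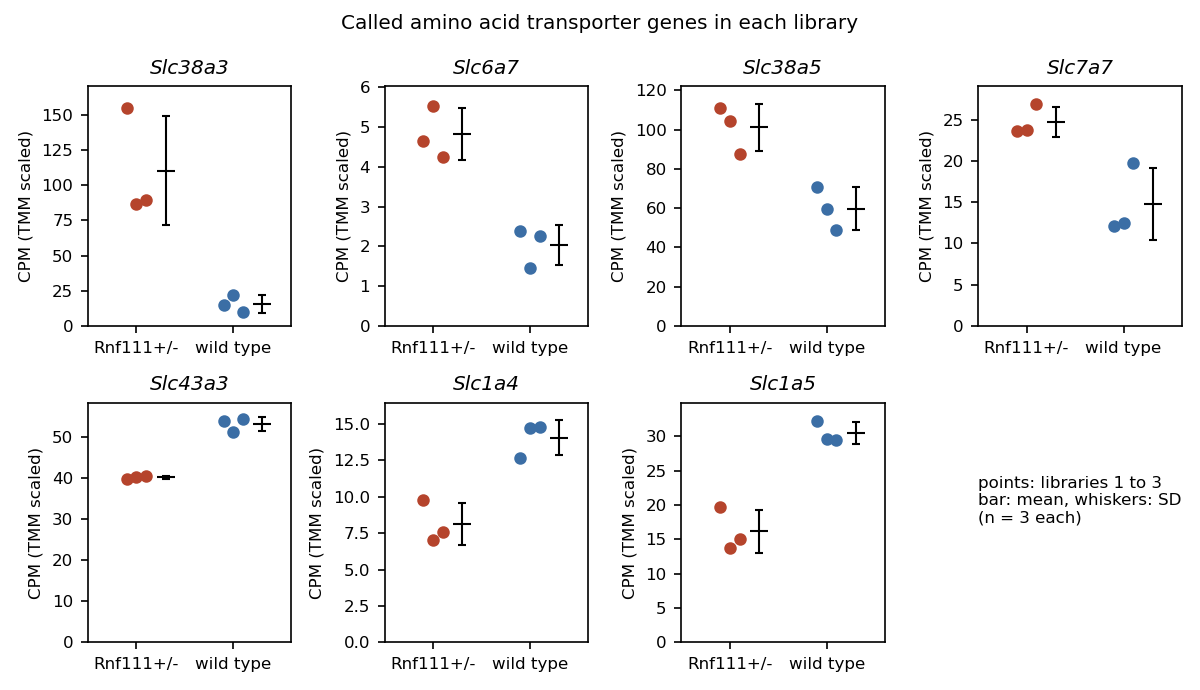
CPM (TMM scaled, vertical axes from 0) of the 7 called members in each library; points are Rnf111+/- (left, red) and wild-type (right, blue) libraries, with the mean and SD beside them (n = 3 each). In each of the 7 panels the Rnf111+/- points lie wholly above or wholly below the wild-type points, with the widest separation for Slc38a3.

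The sodium-coupled neutral carriers of the SLC38 family held 2 of the 4 rises. Slc38a3 encodes SNAT3, which couples glutamine, histidine and asparagine to sodium and counter-transports protons. It stood at 155.2, 86.46 and 89.81 CPM in Rnf111+/- ovaries, against 14.82, 22.13 and 9.782 CPM in wild-type ovaries. The lowest Rnf111+/- library was thus far above the highest wild-type library, and Rnf111+/- replicate 1 stood above the other two. The mean was 7.09-fold higher, a log2 fold change of 2.83 ± 0.39 (SE, adjusted p = 0.0126), with 2 standard errors reaching from 4.15-fold to 12.1-fold. With all libraries it was the largest change in either direction among the 46 members, and without wild-type replicate 3 it came after Slc1a1 (2.59 for Slc38a3 and 2.99 for Slc1a1).

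Slc38a5 encodes SNAT5, a close relative that carries glutamine, asparagine, serine and glycine. Its level was 111.1, 104.6 and 87.69 CPM in Rnf111+/- ovaries and 70.64, 59.74 and 48.65 CPM in wild-type ovaries. The genotypes did not overlap, and the 1.69-fold rise (log2 0.76 ± 0.14) passed (adjusted p = 0.0181). Wild-type replicate 3 was the lowest library for both genes. On the per-length scale (CPM per kb of exon), Slc38a3 moved to rank 8 of the 46 members in Rnf111+/- ovaries, against rank 24 in wild-type ovaries, with levels of 20.9 in Rnf111+/- ovaries and 2.95 in wild-type ovaries. Slc38a5 was at rank 3 (45.1) in Rnf111+/- ovaries and at rank 7 (26.6) in wild-type ovaries.

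The other 9 SLC38 members did not pass. The most abundant were Slc38a2, which encodes the starvation-induced carrier SNAT2, and Slc38a10. Slc38a2 averaged 316 ± 44.3 CPM in Rnf111+/- ovaries and 321.5 ± 18.5 CPM in wild-type ovaries (SD, n = 3 each), and the interval of 2 standard errors of its ratio ran from 0.85 to 1.14. Slc38a10 averaged 261.7 ± 5.61 CPM in Rnf111+/- ovaries and 265.5 ± 7.33 CPM in wild-type ovaries, with an interval from 0.905 to 1.07. Slc38a1, which encodes the glutamine carrier SNAT1, averaged 121.7 ± 19.1 CPM in Rnf111+/- ovaries and 136.8 ± 24.4 CPM in wild-type ovaries. Slc38a4, an imprinted gene whose product carries neutral and cationic amino acids, averaged 9.865 ± 1.73 CPM in Rnf111+/- ovaries and 11.85 ± 1.1 CPM in wild-type ovaries (adjusted p = 0.371). The rarely counted Slc38a8 and Slc38a11 averaged 0.7318 and 1.42 CPM in Rnf111+/- ovaries and 0.5414 and 1.68 CPM in wild-type ovaries.

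Slc38a6 stood at 13.95, 19.1 and 21.86 CPM in Rnf111+/- ovaries, against a narrow 12.84, 12.91 and 12.85 CPM in wild-type ovaries. The groups did not overlap, but the log2 fold change of 0.51 ± 0.17 missed the threshold (adjusted p = 0.0941). It passed with DESeq2 (0.0326; 0.0326 to 0.129 over the 7 alternatives with all libraries) and without Rnf111+/- replicate 1 (0.0345; 0.0345 to 0.29 over the 6 fits that each left out a library). Slc38a7, whose product exports glutamine from lysosomes, showed the same arrangement at 39.56, 35.3 and 39.65 CPM in Rnf111+/- ovaries, against 32.72, 32.99 and 33.02 CPM in wild-type ovaries (log2 0.21 ± 0.08, adjusted p = 0.152). Slc38a9, the lysosomal arginine sensor that signals to mTORC1, overlapped between genotypes at 31.23 ± 4.56 CPM in Rnf111+/- ovaries and 34.85 ± 4.09 CPM in wild-type ovaries (adjusted p = 0.507). Summed over the 11 SLC38 members, the level was 974 to 1047 CPM in Rnf111+/- libraries and 863.9 to 922.6 CPM in wild-type libraries. That sum includes the called Slc38a3 and Slc38a5. Of the 11 members, 5 lay above 0 and 6 below in log2 fold change, with a median of -0.021.

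The SLC1 family holds glutamate carriers and the neutral exchangers ASCT1 and ASCT2. Slc1a5, which encodes ASCT2, a main route of glutamine into dividing cells, stood at 19.75, 13.72 and 15.05 CPM in Rnf111+/- ovaries, against 32.31, 29.57 and 29.5 CPM in wild-type ovaries. Every Rnf111+/- library was below every wild-type library. The log2 fold change was -0.91 ± 0.14 (SE, adjusted p = 0.00748), a level of 0.531 of wild type, and it had the smallest adjusted p of the members.

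Slc1a4 encodes ASCT1, an exchanger of alanine, serine and cysteine. It moved in the same direction, at 9.789, 7.024 and 7.575 CPM in Rnf111+/- ovaries and 12.66, 14.72 and 14.79 CPM in wild-type ovaries. The groups were again apart, and the fall of 0.79 ± 0.16 on the log2 scale passed (adjusted p = 0.0219). Its printed window holds the amino acid response core across the start, as does that of Slc7a7, which was higher in Rnf111+/- ovaries.

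Slc1a1, which encodes the glutamate, aspartate and cysteine carrier EAAT3, was low, at 2.665, 1.43 and 3.657 CPM in Rnf111+/- ovaries and 0.4175, 0.2333 and 1.609 CPM in wild-type ovaries. Wild-type replicate 3 lay just above the lowest Rnf111+/- library, so the groups overlapped, and the log2 difference of 1.77 ± 0.70 missed the threshold (adjusted p = 0.164). Leaving out wild-type replicate 3 gave 2.99 ± 0.51, which passed (adjusted p = 0.00253; 0.00253 to 0.377 over the 6 fits that each left out a library). DESeq2 also called it (adjusted p = 0.0425; 0.03 to 0.266 over the 7 alternatives that kept all libraries). In GENCODE M21, 31.9% of its exon bases are shared with 4430402I18Rik on the opposite strand, a gene at 1.572 ± 0.4 CPM in Rnf111+/- ovaries and 1.708 ± 0.286 CPM in wild-type ovaries (adjusted p = 0.853), so the reads of the pair may not be separated. The other SLC1 members, the glutamate carrier genes Slc1a2, Slc1a3 and Slc1a6, averaged between 0.3105 and 4.205 CPM in either genotype and did not pass.

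The SLC3 heavy chains and their SLC7 light chains were compared as partners. Slc3a2 encodes 4F2hc (CD98), the heavy chain that carries most light chains to the cell surface. It stood at 243.6, 217.4 and 260.8 CPM in Rnf111+/- ovaries and 202.8, 224.5 and 243.8 CPM in wild-type ovaries. The groups overlapped, and the log2 difference was 0.105 ± 0.0942 (adjusted p = 0.538), with a ratio between 0.944 and 1.23 within 2 standard errors. Per length it was the most abundant member in both genotypes, at 68.2 CPM per kb in Rnf111+/- ovaries and 63.4 in wild-type ovaries.

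Slc7a7 was the called light chain. It encodes y+LAT1, which exports arginine and lysine in exchange for neutral amino acids and sodium, and whose loss in people causes lysinuric protein intolerance. Its level was 23.59, 23.7 and 26.88 CPM in Rnf111+/- ovaries and 12.06, 12.52 and 19.77 CPM in wild-type ovaries. The genotypes were apart, although wild-type replicate 3 lay closer to the Rnf111+/- libraries than to the other wild-type libraries. The 1.67-fold rise (log2 0.74 ± 0.19) passed narrowly (adjusted p = 0.0468). Its exons share 7.0% of their bases with Oxa1l on the opposite strand, which did not pass (93.59 ± 4.37 CPM in Rnf111+/- ovaries and 105.1 ± 13.6 CPM in wild-type ovaries, adjusted p = 0.339).

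Slc7a7 is abundant in macrophages as background knowledge, so macrophage markers are given beside it. Of 8 markers (Adgre1, Csf1r, Cd68, Cd163, Mrc1, Itgam, Tyrobp and Lyz2), none rose and only Cd163 fell, and none was at 0 in any library. Their summed level was 255.6 to 331.3 CPM in Rnf111+/- libraries and 249.6 to 356.4 CPM in wild-type libraries, which overlapped. In log2 fold change, 2 of the 8 lay above 0 and 6 below. Cd68, above 0, was at 27.67, 27.81 and 30.07 CPM in Rnf111+/- ovaries and 17.01, 15.45 and 30.9 CPM in wild-type ovaries (edgeR adjusted p = 0.343). The part of macrophages in the change of Slc7a7 was not tested. Without wild-type replicate 3, 1 of the 8 rose and 1 fell. Of all 17262 genes in that fit, 1273 rose and 1522 fell, against 657 and 966 of 16841 with all libraries.

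The other light chains did not pass. Slc7a5, which encodes LAT1, the carrier of leucine and other large neutral amino acids, stood at 259.1, 170.3 and 191.7 CPM in Rnf111+/- ovaries and 187.8, 200.1 and 158.1 CPM in wild-type ovaries. The groups overlapped, with Rnf111+/- replicate 1 highest (log2 0.19 ± 0.16, adjusted p = 0.535). Slc7a8, which encodes its relative LAT2, stood at 173.6, 170.4 and 210.9 CPM in Rnf111+/- ovaries and 171.4, 177.7 and 182 CPM in wild-type ovaries (adjusted p = 0.716). The groups overlapped here too, as they did for the second y+ light chain.

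That gene, Slc7a6 (y+LAT2), was measured at 72.79, 68.99 and 64.91 CPM in Rnf111+/- ovaries and 74.03, 76.09 and 66.91 CPM in wild-type ovaries (log2 -0.07 ± 0.08, adjusted p = 0.631). Slc7a11, which encodes the cystine and glutamate exchanger xCT, was at 4.409, 4.24 and 4.206 CPM in Rnf111+/- ovaries and 4.567, 4.717 and 8.709 CPM in wild-type ovaries. Its groups did not overlap, but wild-type replicate 3 stood far above the rest, and the log2 value of -0.49 ± 0.27 did not pass (adjusted p = 0.306). Without that library it was -0.105 ± 0.198. The second heavy chain gene, Slc3a1 (rBAT), was near the bottom of the range at 0.6726, 0.7152 and 0.6269 CPM in Rnf111+/- ovaries and 0.7307, 0.2073 and 0.2809 CPM in wild-type ovaries (adjusted p = 0.448), and its known partner Slc7a9 had too few counts to be a member. Slc3a1 shares 26.5% of its exon bases with Prepl on the opposite strand, which stood at 60.09 ± 4.14 CPM in Rnf111+/- ovaries and 55.43 ± 3.82 CPM in wild-type ovaries (adjusted p = 0.441), so its reads may include those of the more abundant gene.

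Of the cationic amino acid carriers, which bring in arginine, lysine and ornithine without a heavy chain, none passed. Slc7a2 (CAT2) came closest, at 51.41, 45 and 41.09 CPM in Rnf111+/- ovaries and 63.23, 54.01 and 57.41 CPM in wild-type ovaries. Every Rnf111+/- library was below every wild-type library, at a log2 difference of -0.34 ± 0.10 (adjusted p = 0.072). DESeq2 called it (adjusted p = 0.0454), and so did edgeR when low genes were not removed (0.0498). Over the 7 alternatives with all libraries its adjusted p ran from 0.0438 to 0.109, and over the 6 fits with a library left out from 0.0564 to 0.246. Slc7a1 (CAT1), the more abundant carrier, averaged 69.89 ± 10.7 CPM in Rnf111+/- ovaries and 74.91 ± 1.17 CPM in wild-type ovaries (adjusted p = 0.615).

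Slc7a3 (CAT3) stood at 1.121, 0.8939 and 0.8882 CPM in Rnf111+/- ovaries and 1.305, 1.348 and 1.737 CPM in wild-type ovaries. Its groups were apart, but the log2 difference of -0.59 ± 0.31 did not pass (adjusted p = 0.277). Slc7a4, the remaining relative, averaged 18.58 ± 2.66 CPM in Rnf111+/- ovaries and 17.87 ± 0.912 CPM in wild-type ovaries (adjusted p = 0.832). It shares 13.3% of its exon bases with P2rx6 on the opposite strand, which fell, to 3.289 ± 0.612 CPM in Rnf111+/- ovaries, against 8.105 ± 1.15 CPM in wild-type ovaries (adjusted p = 0.00853). Slc7a6os averaged 34.08 ± 2.46 CPM in Rnf111+/- ovaries and 32.72 ± 2.32 CPM in wild-type ovaries (adjusted p = 0.749).

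**Figure D2:**
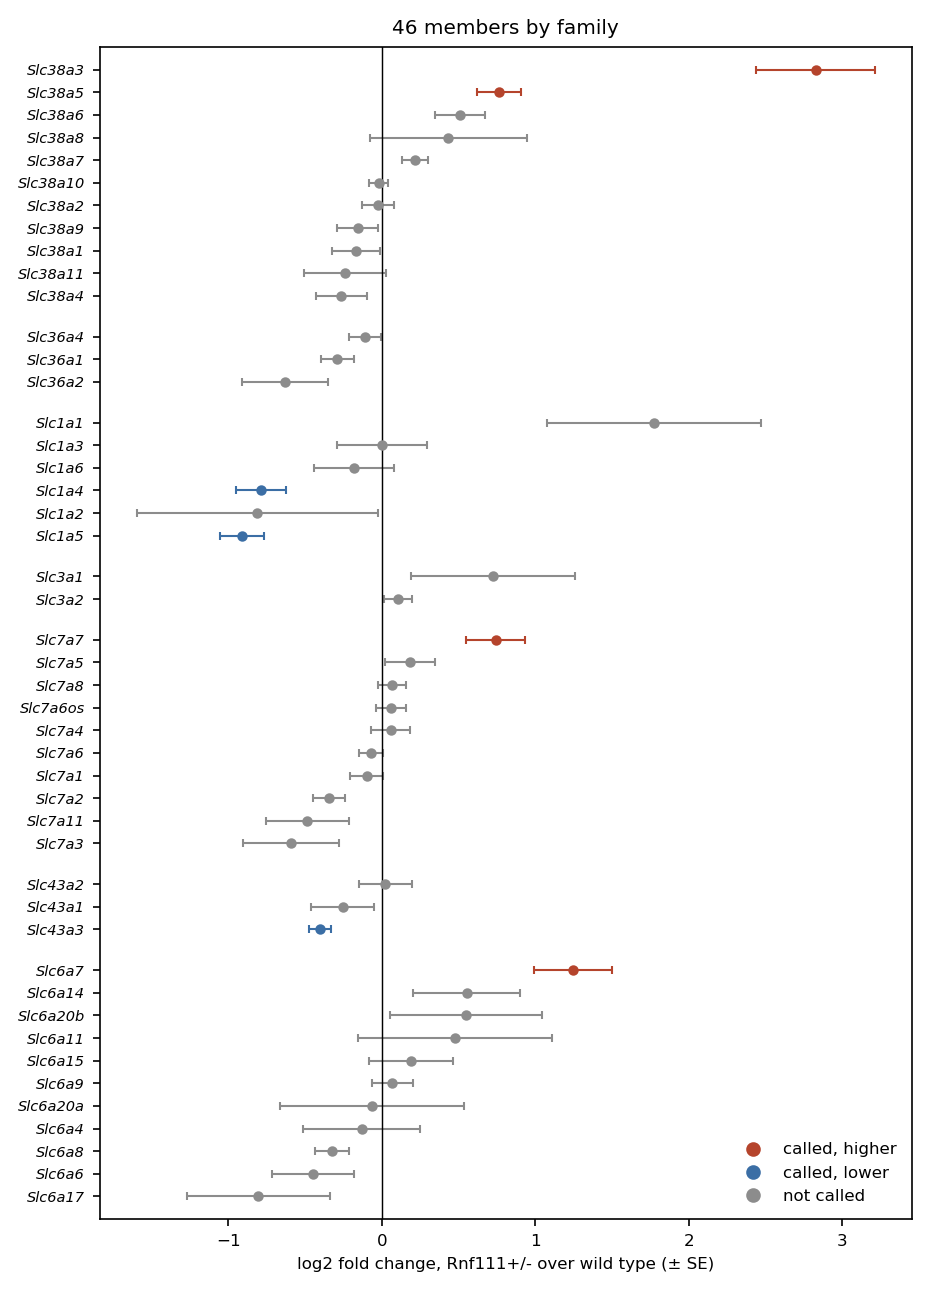
Log2 fold change of Rnf111+/- over wild type for the 46 members, grouped by family, with SE as whiskers; red points were called higher, blue points lower and grey points were not called. Slc38a3 at 2.83 stands furthest from 0, and the called falls are Slc1a5, Slc1a4 and Slc43a3.

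In the SLC6 family of sodium- and chloride-coupled carriers, 1 of 11 members passed. Slc6a7 encodes PROT, a proline carrier best known from glutamatergic nerve terminals. It was at 4.658, 5.542 and 4.258 CPM in Rnf111+/- ovaries and 2.375, 1.451 and 2.273 CPM in wild-type ovaries. The groups were apart, and the 2.37-fold rise (log2 1.24 ± 0.26) passed (adjusted p = 0.021). It remained a low-abundance member, with 163 to 217 counts in Rnf111+/- libraries and 56 to 91 in wild-type libraries.

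Slc6a6, which encodes the taurine carrier TauT, was the most abundant SLC6 member, at 406.6, 214.8 and 267.8 CPM in Rnf111+/- ovaries and 423.8, 475.5 and 314.1 CPM in wild-type ovaries. Rnf111+/- replicate 1 lay within the wild-type range and the difference of -0.45 ± 0.27 did not pass (adjusted p = 0.362). The creatine carrier gene Slc6a8 did not overlap between genotypes, at 44.04, 39.05 and 42.16 CPM in Rnf111+/- ovaries, against 44.99, 53.08 and 58.82 CPM in wild-type ovaries, and missed the threshold (log2 -0.32 ± 0.11, adjusted p = 0.101). Slc6a9, which encodes the oocyte glycine carrier GlyT1, overlapped, at 49.3, 43.96 and 34.59 CPM in Rnf111+/- ovaries and 37.63, 40.66 and 43.62 CPM in wild-type ovaries (log2 0.07 ± 0.13, adjusted p = 0.791).

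Exons of Slc6a9 share 27.8% of their bases with Ccdc24 on the opposite strand, which was at 4.511 ± 0.74 CPM in Rnf111+/- ovaries and 3.154 ± 0.188 CPM in wild-type ovaries (adjusted p = 0.164). Slc6a14, a broad carrier of neutral and cationic amino acids, was at 1.27, 1.686 and 1.567 CPM in Rnf111+/- ovaries and 1.226, 1.192 and 0.664 CPM in wild-type ovaries. The groups were apart by a small margin and the log2 difference of 0.55 ± 0.35 did not pass (adjusted p = 0.371). The remaining 6 members overlapped between genotypes and did not pass. Of these, Slc6a15, a carrier of proline and branched-chain amino acids, averaged 18.39 ± 3.38 CPM in Rnf111+/- ovaries and 16.13 ± 5.91 CPM in wild-type ovaries. The serotonin carrier gene Slc6a4, the GABA carrier gene Slc6a11, the vesicular neutral carrier gene Slc6a17 and the proline carrier genes Slc6a20a and Slc6a20b averaged 0.2545 to 1.735 CPM in Rnf111+/- ovaries and 0.2666 to 1.901 CPM in wild-type ovaries. Slc6a20a and Slc6a20b are close copies, so the division of their reads is uncertain. Slc6a20b also shares 21.1% of its exon bases with Sacm1l on the opposite strand. Sacm1l stood at 91.42 ± 6.02 CPM in Rnf111+/- ovaries and 99.8 ± 5.29 CPM in wild-type ovaries, so reads of Slc6a20b may include those of this more abundant gene.

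SLC36 carriers move small neutral amino acids with protons, and SLC43 carriers move large neutral amino acids down their gradient. None of the 3 SLC36 members passed. Slc36a2 (PAT2) was at 1.196, 1.098 and 1.541 CPM in Rnf111+/- ovaries and 2.009, 1.866 and 2.069 CPM in wild-type ovaries. The groups did not overlap, and the log2 difference of -0.63 ± 0.28 did not pass (adjusted p = 0.198). The lysosomal carrier gene Slc36a1 (PAT1) was at 34.95, 31.57 and 31.84 CPM in Rnf111+/- ovaries, against 38.36, 36.34 and 45.56 CPM in wild-type ovaries, also without overlap (adjusted p = 0.127). Slc36a4 (PAT4), a high-affinity carrier of proline and tryptophan, averaged 38.54 ± 2.44 CPM in Rnf111+/- ovaries and 41.56 ± 4.73 CPM in wild-type ovaries (adjusted p = 0.56).

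Slc43a3 fell. It was at 39.81, 40.41 and 40.52 CPM in Rnf111+/- ovaries and 53.91, 51.32 and 54.48 CPM in wild-type ovaries. Replicates of each genotype lay close together and the genotypes were well apart, and the log2 fold change of -0.40 ± 0.07 passed (adjusted p = 0.0119). The amino acid carriers of the family, Slc43a1 (LAT3) and Slc43a2 (LAT4), did not pass. Slc43a1 averaged 2.942 ± 0.0413 CPM in Rnf111+/- ovaries and 3.516 ± 0.367 CPM in wild-type ovaries (adjusted p = 0.481). Slc43a2 averaged 33.43 ± 2.59 CPM in Rnf111+/- ovaries and 32.91 ± 8.83 CPM in wild-type ovaries, with a ratio between 0.797 and 1.29 within 2 standard errors.

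**Figure D3:**
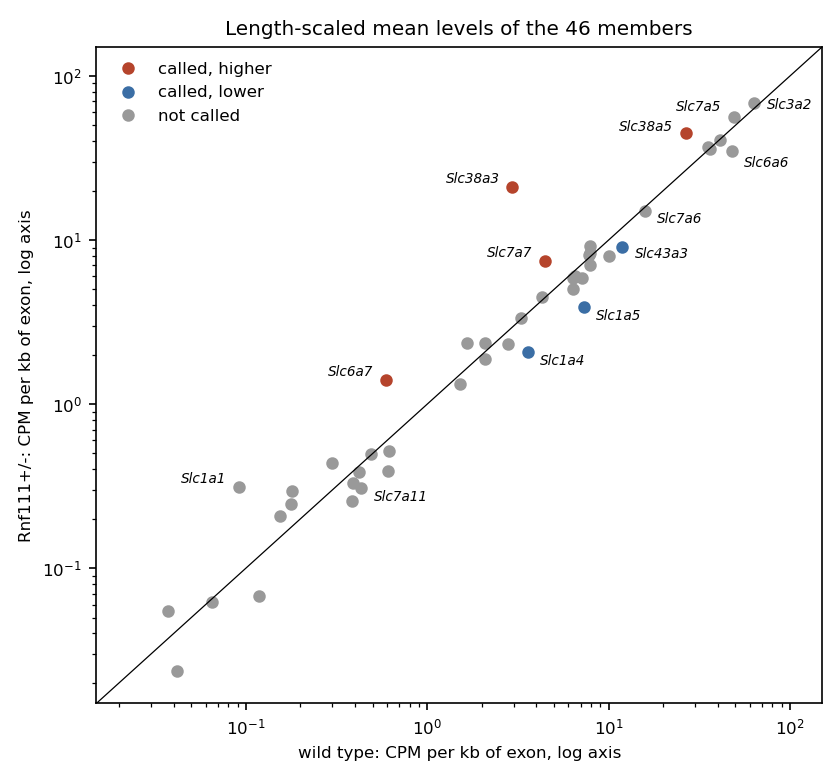
Mean level per kb of exon of the 46 members in Rnf111+/- ovaries (vertical) against wild-type ovaries (horizontal), both on log axes, with the line of equal levels. Slc3a2 and Slc7a5 rank highest in both genotypes, and Slc38a3 lies furthest above the line among members over 1 CPM per kb in wild type, at 20.9 in Rnf111+/- ovaries and 2.95 in wild-type ovaries.

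Levels per length spanned a wide range. The highest members in Rnf111+/- ovaries were Slc3a2 (68.2 CPM per kb), Slc7a5 (55.8), Slc38a5 (45.1), Slc38a10 (40.7), Slc7a8 (37), Slc38a2 (35.8) and Slc6a6 (35). In wild-type ovaries the same 7 genes led, with Slc6a6 at rank 3 (47.8). Slc3a2 alone made up 14.7% of the summed per-length level of the members in Rnf111+/- ovaries and 14.5% in wild-type ovaries. The share of Slc38a3 was 4.52% in Rnf111+/- ovaries and 0.676% in wild-type ovaries. Neighbours such as Slc7a8 and Slc38a2 lay within their replicate spread. By mean CPM over all libraries, 7 members were at 100 CPM or more, 21 at 10 to 100, 12 at 1 to 10 and 6 under 1 CPM.

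The calls were refitted with each library left out in turn. Slc1a5 passed in all 6 fits (adjusted p from 0.00206 to 0.0475). Slc38a3 passed in 5 and was lost without wild-type replicate 1 (0.0577). Slc43a3 was lost without Rnf111+/- replicates 2 and 3 (0.0639 and 0.0573). Slc1a4 was lost without Rnf111+/- replicates 2 and 3 and wild-type replicate 2 (0.0985, 0.097 and 0.0781). These 4 genes kept their direction in every such fit, as did the other called members.

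Slc38a5 was lost without Rnf111+/- replicates 1 and 2 and wild-type replicate 2 (adjusted p = 0.0683, 0.0766 and 0.0657 by edgeR). Slc6a7 was lost when any 1 of the Rnf111+/- replicates or wild-type replicate 2 was left out (0.0559 to 0.0957). Slc7a7 passed only without wild-type replicate 3 (log2 1.02 ± 0.12, adjusted p = 0.000206) and was lost in the other 5 fits (0.113 to 0.16). Members called higher numbered 2, 1, 2, 2, 1 and 5 without Rnf111+/- replicates 1, 2 and 3 and wild-type replicates 1, 2 and 3. Members called lower numbered 3, 1, 1, 3, 2 and 3 in the same order. The calls over all genes moved too, from 657 higher and 966 lower with all libraries. Without wild-type replicate 3, 1273 of 17262 tested genes were called higher and 1522 lower. Without any other single library, 224 to 384 were called higher and 297 to 525 lower.

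**Figure D4:**
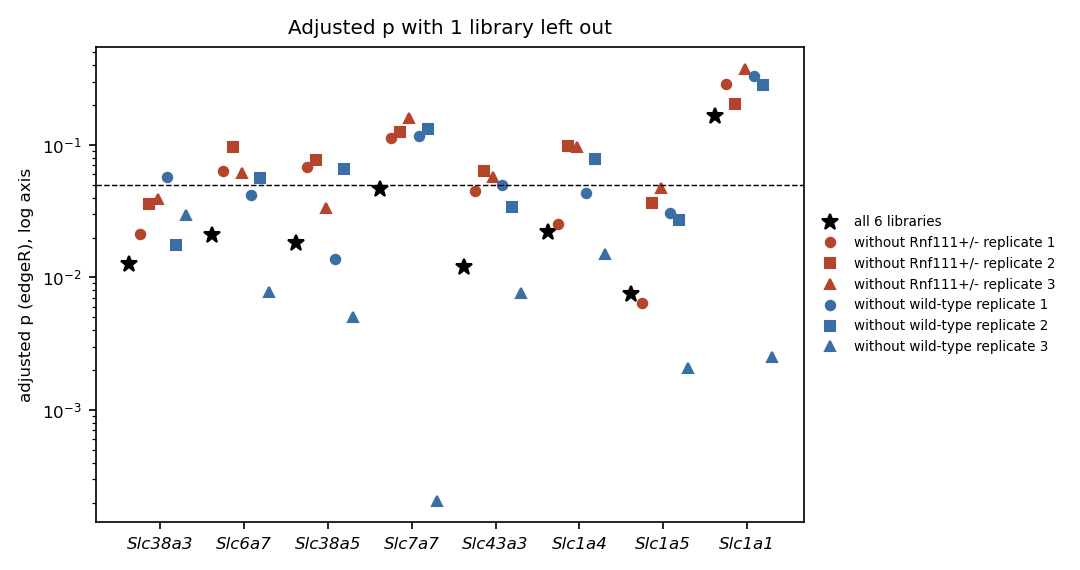
Adjusted p of edgeR's test (log axis) for the 7 called members and Slc1a1, with all 6 libraries (stars) and with each library left out (red, Rnf111+/-; blue, wild type); the dashed line is the threshold of 0.05. Slc1a5 stays below the line throughout, and leaving out wild-type replicate 3 gives the lowest value for 7 of the 8 genes.

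Markers of ovarian cell types moved with genotype and are given beside the transporter calls. Of 10 oocyte markers, 6 rose and none fell, with a summed level of 191.2 to 250.8 CPM in Rnf111+/- libraries and 131.9 to 153.8 CPM in wild-type libraries. Of 10 granulosa markers, 1 (Cyp19a1, aromatase) rose, and the sums overlapped at 5638 to 8439 CPM in Rnf111+/- libraries and 2721 to 6539 CPM in wild-type libraries. Of 8 endothelial markers, 6 fell (310.9 to 351.2 CPM in Rnf111+/- libraries, 420.7 to 495.1 CPM in wild-type libraries), and of 8 stromal markers, 5 fell (2200 to 2594 CPM in Rnf111+/- libraries, 3529 to 4145 CPM in wild-type libraries).

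Of 8 theca and interstitium markers, 1 rose (Cyp17a1, log2 6.13 ± 0.45) and 3 fell (Star, Hsd3b1 and Mgarp). Their sum was 8967 to 11130 CPM in Rnf111+/- libraries and 13310 to 14360 CPM in wild-type libraries. Of 8 corpus luteum markers, none rose and 2 fell (Parm1 and Fdx1). The luteal sum was nevertheless 6300 to 9396 CPM in Rnf111+/- libraries and 3060 to 4360 CPM in wild-type libraries. Only Akr1c18, Sfrp4 and Ptgfr lay above 0 in log2 fold change, without passing. They averaged 2420, 2616 and 698.8 CPM in Rnf111+/- ovaries and 276.4, 444.9 and 202.4 CPM in wild-type ovaries. The other 5 lay below 0, and the list median was -0.291. Without wild-type replicate 3, 3 luteal and 2 granulosa markers rose and 5 endothelial markers fell, and the other counts of these 6 lists were as before. Of all 17262 genes in that fit, 1273 rose and 1522 fell, against 657 and 966 of 16841 with all libraries. No marker of these 6 lists was at 0 in any library. The part of these markers in the changes of Slc38a3, Slc38a5, Slc6a7, Slc7a7, Slc1a4, Slc1a5 and Slc43a3 was not tested. Contaminating tissue was looked for with 6 oviduct epithelium markers. Their sum was 63.44 to 70.88 CPM in Rnf111+/- libraries, 80.35 and 83.69 CPM in wild-type replicates 1 and 2 and 260.7 CPM in wild-type replicate 3. The 1 that fell was Epcam, at 39.34 ± 2.21 CPM in Rnf111+/- ovaries and 57.24 ± 2.18 CPM in wild-type ovaries. Ovgp1, Foxj1 and Dnah5 were at 146.3, 13.66 and 14.61 CPM in wild-type replicate 3. In every other library they were at most 8.046, 1.686 and 0.5702 CPM. None of 4 tested adipocyte and 5 tested erythrocyte markers passed, and their sums overlapped. Without wild-type replicate 3, 1 adipocyte marker rose, with a median log2 fold change of 0.668 over the list, against -0.139 with all libraries. The adipocyte sum was 28.32 to 53.48 CPM in Rnf111+/- libraries and 18.81 to 73.15 CPM in wild-type libraries, and the erythrocyte sum was 46.95 to 172 CPM in Rnf111+/- libraries and 37.48 to 75.7 CPM in wild-type libraries.

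The wider amino acid pathway was read from 3 further lists. Of 39 tested targets of the amino acid response, which ATF4 drives when amino acids are scarce, none rose and 4 fell: Atf5, Aldh1l2, Cebpb and Stc2. Atf5, a transcription factor of this response, was at 30.14, 28.99 and 30.98 CPM in Rnf111+/- ovaries and 52.53, 58.68 and 69.08 CPM in wild-type ovaries and fell to 0.5 of the wild-type level (adjusted p = 0.0014). The groups were far apart. Aldh1l2, a mitochondrial folate enzyme, averaged 0.8265 ± 0.122 CPM in Rnf111+/- ovaries and 2.829 ± 1.13 CPM in wild-type ovaries (log2 -1.77 ± 0.36, adjusted p = 0.0207).

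Cebpb, which also rises during ovulation, averaged 98.68 ± 12.1 CPM in Rnf111+/- ovaries and 178.3 ± 46.2 CPM in wild-type ovaries (log2 -0.85 ± 0.19, adjusted p = 0.0394), and Stc2 averaged 7.814 ± 1.26 CPM in Rnf111+/- ovaries and 12.73 ± 1.51 CPM in wild-type ovaries (log2 -0.70 ± 0.17, adjusted p = 0.0356). The share of the list that fell (10.3%) compares with 5.74% of all genes, and its median log2 fold change was -0.148. Without wild-type replicate 3, 1 target rose and 8 fell. Of all 17262 genes in that fit, 1273 rose and 1522 fell, against 657 and 966 of 16841 with all libraries. Of 36 tested genes of amino acid sensing upstream of mTORC1, 1 rose (Rragb, a Rag GTPase, log2 0.73 ± 0.17, adjusted p = 0.0333) and 1 fell (Lamtor4, part of its lysosomal anchor, log2 -0.42 ± 0.10, adjusted p = 0.0357), with a median of 0.02. Each is 2.78% of the list, against 3.90% of all genes that rose and 5.74% that fell, and without wild-type replicate 3, 2 of the list rose and 1 fell.

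Of 20 tested amino acid and peptide carriers outside the 7 families, none rose and 2 fell (10%, against 5.74% of all genes). Without wild-type replicate 3, none rose and 3 fell, in a fit where 1273 of all 17262 genes rose and 1522 fell. Sfxn1, the mitochondrial serine carrier, was at 63.82, 47.69 and 52.09 CPM in Rnf111+/- ovaries and 78.52, 80.14 and 76.85 CPM in wild-type ovaries (log2 -0.53 ± 0.11, adjusted p = 0.0199). Slc15a1, a peptide carrier, averaged 0.1345 ± 0.102 CPM in Rnf111+/- ovaries, near the detection floor, and 0.8012 ± 0.133 CPM in wild-type ovaries (log2 -2.54 ± 0.59, adjusted p = 0.0306). The median of the list was 0.018, against -0.008 over all genes.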

How the data were processed

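The authors deposited whole-number read counts per gene symbol for 6 ovary libraries. The submitters' processing notes name fastp (0.20.1), HISAT2 (2.1.0), HTSeq (0.11.2), DESeq2 (1.38.3) and the mouse build GRCm39. Neither the annotation nor the strand setting is given in the sources used here, and overlapping genes on opposite strands may share reads. All columns belonged to a labelled library (0 without one), and no pair of libraries of the same genotype agreed within sampling noise. Pairs between genotypes were not checked for this.

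The counts were analysed in edgeR (4.0.16, R 4.3.3). After filterByExpr (at its minimum count of 10 and minimum total of 15), TMM factors were computed, and edgeR's quasi-likelihood test with robust dispersion compared the genotypes, with no other covariate. The two-sided test was adjusted by Benjamini-Hochberg over 16841 genes, and an adjusted p under 0.05 was called. SE is the absolute log2 fold change over the square root of F. Per-length levels divide CPM by the merged exon length of GENCODE M21 (build GRCm38), used for lengths and exon overlaps only. Other scalings and filters, DESeq2 (1.42.0), limma-voom (3.58.1), a replicate block and leaving out each library were alternatives. The fit was tested on simulated data. P-values set the genotype difference against the spread between mice of a genotype, counting noise included, with dispersion partly shared across genes. The detection floor (3 counts) covers counting error only.

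The members and lists were chosen with earlier results of these data known. Members named with every library's value were those called, the partner chains that passed the count minimum, Slc6a9, Slc38a3 and Slc38a5, and the 6 uncalled members with the largest absolute log2 fold change at a mean of at least 1 CPM. Others are given within their family, and Slc38a7, Slc7a2, Slc6a6, Slc6a8 and Slc36a1 were given in full after their values were seen. The 10 listed genes found in the table under older symbols were matched through RefSeq synonyms. Kics2, Samtor and Slc66a4 were not found in the table and were left out.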

Additional observations from a re-analysis of the deposited data

How the results depend on the processing

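With all 6 libraries, other scalings (DESeq2's size factors, upper quartile), filters, limma-voom and DESeq2 kept all 7 called members, with 4 to 6 members called higher and 3 to 4 lower. Over all 16841 genes, DESeq2 called 1172 higher and 1443 lower, against 657 and 966 by edgeR. Deviations of same-numbered libraries correlated at 0.012, 0.006 and 0.1 across genes. Rnf111+/- replicates 1 and 2 correlated best with wild-type libraries of another number, and replicate 3 with wild-type replicate 3. With 3 libraries per genotype, such correlations cannot decide whether the replicate numbers mark pairs. With the replicate number as a block, 5 members were called higher and 4 lower, adding Slc1a1 and Slc7a2. That fit called 678 of all 16841 genes higher and 948 lower. With 1 library left out, the number called higher ranged from 1 to 5 and the number called lower from 1 to 3. Over all genes, it ranged from 224 to 1273 higher and from 297 to 1522 lower. Such fits have fewer libraries.

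Of 311 refitted values of the 24 members given with every library's value, 282 kept direction and side of the threshold, 18 were lost as calls, 8 became calls and 3 changed sign. The sign changes concerned uncalled members: Slc6a9 (-0.049) and Slc7a5 (-0.007) without Rnf111+/- replicate 1, and Slc7a8 (-0.038) without Rnf111+/- replicate 3. Over the fits with 1 library left out they ranged from -0.049 to 0.202, -0.007 to 0.318 and -0.038 to 0.128 in log2 fold change, named in that order. The cause was not tested. The median of the members was -0.015 with upper-quartile scaling and 0 without wild-type replicate 3. Over all genes, the median was 0.023 and 0.009 in these fits. Count minimums of 5 and 20 in place of 10 gave 50 and 43 members. Depth limited members under 1 CPM, whose libraries held as few as 5 counts.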

Other observations

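Among the symbols that missed the count minimum, Slc6a2, which encodes the noradrenaline carrier NET, had 7, 6 and 6 counts in Rnf111+/- libraries and 9, 11 and 253 counts in wild-type libraries, so that wild-type replicate 3 alone held most of its reads. Slc6a11, a carrier of the transmitter GABA, was low in that library alone, with 6 counts against 48 and 49 in the other wild-type libraries and 42 to 55 in Rnf111+/- libraries. Of the 46 members, wild-type replicate 3 had the highest level for 13 and the lowest for 8, more extremes than any other library (21, against 9 to 20). These values were noticed after the data were seen.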
